A study of Xenopus laevis with 60 samples.

Results

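The Mix and Bix genes of Xenopus laevis encode paired-type homeodomain transcription factors of the mesendoderm, the tissue that gives rise to endoderm and mesoderm. The genes described here are those annotated as mix1, mixer, bix1.1, bix1.2 and bix1.3, each with a copy on the L and on the S subgenome of this allotetraploid frog. They were chosen by symbol and make 10 genes of the 49580 with a deposited expression level, namely mix1.L (gene40654), mix1.S (gene6878), mixer.L (gene15763), mixer.S (gene2723), bix1.1.L (gene6547), bix1.1.S (gene1452), bix1.2.L (gene11289), bix1.2.S (gene41366), bix1.3.L (gene12081) and bix1.3.S (gene12508). By symbol, 9 of the 10 were found in the RefSeq gene table of assembly Xenopus_laevis_v10.1, where they follow each other without a gene between them, as bix1.3.L, bix1.1.L, mix1.L and mixer.L on chromosome 5L and as mixer.S, mix1.S, bix1.1.S, bix1.2.S and bix1.3.S on chromosome 5S. The gene bix1.2.L was not matched in it. The files use the earlier v9.2 genome, so no coordinates are given.

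In frog embryos the family is known to be switched on in the vegetal region by the maternal T-box factor VegT and by nodal signals, TGF-beta family ligands that act through Smad2 and Foxh1. Mixer and Mix1 take part in endoderm formation, and the Bix genes were described as targets of the T-box factors Brachyury and VegT. Pou5f3.2 and Pou5f3.3, homologs of mammalian OCT4, and the SoxB1 factor Sox3 are maternal regulators of the first zygotic transcription and of pluripotency.

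Total RNA of whole wild-type embryos, 2 per sample, was depleted of ribosomal RNA and sequenced in 60 libraries. Untreated embryos were taken at stages 5, 8 and 10.5 (2 libraries each) and at stages 6 and 7 (1 each), with stage 9 embryos collected 8 hours after fertilization. Of all library titles, only those of stage 5 name a depletion of COX2 and COX3, mitochondrial transcripts, so stage and depletion cannot be told apart in a comparison with stage 5. Stage 9 embryos came from collections named A to H, a collection being embryos gathered together from the pooled eggs of 1 or 2 mothers. Collection A held embryos given 20 µM triptolide, an inhibitor of transcription, from stage 1, embryos given its solvent DMSO, and untreated embryos (2 libraries each). Collection B held embryos given 500 µg/mL cycloheximide (CHX), an inhibitor of translation, at stage 8, embryos given triptolide and embryos given DMSO (2 each). Antisense morpholinos (MO), which block the translation of a chosen mRNA, were injected at stage 1. By the study's methods, embryos given an inhibitor or a morpholino were collected by the stage of untreated embryos of their batch. For treated embryos the stage in the label therefore gives the time of collection. Without CHX, collection G compared pou5f3.3 + sox3 MO (40 ng each with 40 ng GFP MO) with 120 ng of the control GFP MO, and collection F compared pou5f3.2 + pou5f3.3 + sox3 MO (40 ng each, the triple MO) and pou5f3.2 + pou5f3.3 MO (40 ng each with 40 ng GFP MO) with 120 ng GFP MO (3 libraries each). With CHX, collection C held pou5f3.3 MO, sox3 MO (each 40 ng with 40 ng GFP MO), both together (40 ng each) and 80 ng GFP MO (2 each), collection D held a higher dose of pou5f3.3 + sox3 MO (55 ng and 75 ng) and 80 ng GFP MO (2 each), and collection F held the triple MO alone (3 libraries). Collection E held 1 library each of pou5f3.3 + sox3 MO (40 ng each), 80 ng GFP MO and untreated embryos. Collection H held the triple MO with CHX (40 ng each, 2 libraries), 120 ng GFP MO with CHX (3) and 120 ng GFP MO without CHX (2), and its CHX libraries were discarded by the study for a likely fault of the treatment. For collection E the study's methods name another amount, 120 ng in all for embryos without CHX. For GFP MO with CHX, as in collection H, they name 80 ng. The values of the morpholino libraries of E and of the CHX libraries of H are given apart. The libraries do not measure how far a morpholino lowered its protein. Samples of a collection share mothers, so p-values measure the spread between samples and not between clutches, and the labels give no collection for stages 5, 6, 7, 8 and 10.5.

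Libraries held 6809284 to 25358689 counts in exons and 36766 to 1638148 in introns. Exon levels are in TPM, which divides counts by exon length and puts all libraries on 1 total, and intron levels in RPKM, which divides intron counts by intron length and by the exon counts of the library. Intron reads stem from RNA that is not yet spliced. Differences are on the log2 scale from edgeR's quasi-likelihood test on counts, with Benjamini-Hochberg adjustment over 27602 exon and 9893 intron entries. A gene was called where its exon or intron entry moved by 1.5 or more on the log2 scale at an adjusted p below 0.05. All 10 genes had both entries in the test. Counts of member exon entries at an unadjusted p under 0.05 are also given. The share of all entries at that cut was not computed, so these counts are a description. The members of this family resemble each other, and reads from a near-identical stretch could have been assigned to the wrong copy or been left out, so differences between copies are less certain than the differences between conditions.

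The family was all but silent in the cleaving embryo. At stage 5 the only count on any of the 10 genes was 1 read pair on mix1.S (0.062 TPM) in replicate 1. A count of 0 was taken to allow up to 3 counts, about the upper 95% limit of a Poisson count. That would have been 0.108 TPM for mixer.L in that library. bix1.3.L was the exception at the next stages, with 4.47 TPM at stage 6, 4.90 TPM at stage 7 and 4.32 and 2.76 TPM in the stage 8 libraries, from 48, 20, 17 and 11 counts. Its introns held no count in the same libraries but for 1 count (0.248 RPKM) in stage 8 replicate 2. No other member passed 0.715 TPM at stages 6 to 8.

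At stage 8, bix1.3.L stood at least 15.9-fold above stage 5, taking 3 counts for each stage 5 library (log2 difference 7.96, SE 1.26, adjusted p = 1.2e-06 from edgeR). bix1.2.L had 0.482 and 0.715 TPM at stage 8, against 0 in both stage 5 libraries, and was called on 5 counts (log2 difference 5.5, SE 2.12, adjusted p = 0.044 from edgeR). That call was lost without any 1 of the 4 libraries, with adjusted p between 0.087 and 0.20. The 2 genes called higher stand beside 7.33% of all genes tested. mixer.L, mixer.S, mix1.L and bix1.1.L had no exon count in the stage 8 libraries, which for mix1.L allows up to 1.06 TPM in each.

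By stage 9 all 10 genes had risen, in exons and in introns. mix1.L had 47.7 and 58.8 TPM in untreated stage 9 embryos, against 0 in both stage 8 libraries, at least 50.3-fold higher. mixer.L had 20.7 and 27.2 TPM, against 0 at stage 8, at least 63.9-fold higher. mix1.S reached 51.3 and 65.1 TPM, against 0.432 and 0.214 TPM at stage 8 (log2 difference 7.34, SE 0.40, adjusted p = 2.7e-22 from edgeR). The 2 stages did not overlap for any member, and 33.9% of all genes lay higher in this way.

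The smallest rise was that of bix1.3.L, the member already counted before stage 8, with 44.5 and 55.8 TPM at stage 9, against 4.32 and 2.76 TPM at stage 8 (log2 difference 3.72, SE 0.28, adjusted p = 1.8e-16 from edgeR). Its introns had 7.13 and 9.27 RPKM at stage 9, against 0 and 0.248 RPKM. Introns of all 10 members were called higher, beside 62% of all intron entries. mixer.L introns stood at least 26.7-fold and bix1.2.L introns at least 16.6-fold above stage 8. The 10 of 10 genes called higher stand beside 27% of all genes. Summed over the family, the exon level was 343 and 439 TPM at stage 9, against 6.23 and 4.14 TPM at stage 8. Stage 9 came from collection A and the collection of the stage 8 embryos is not given, so stage and collection cannot be told apart.

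**Figure D1:**
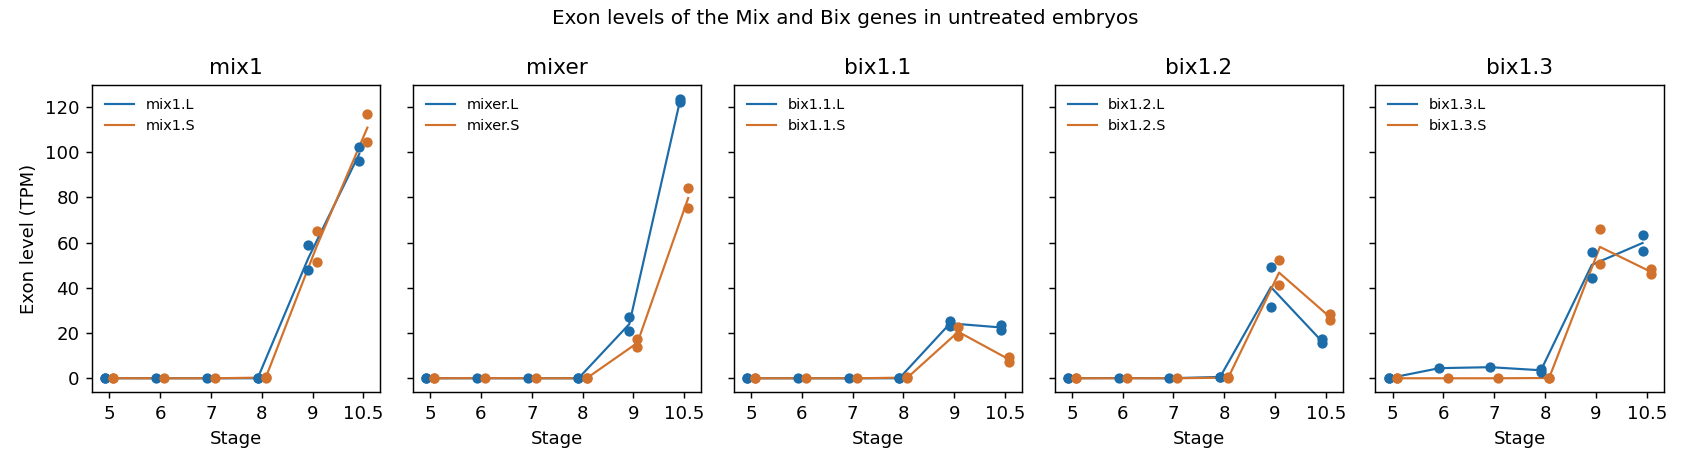
Exon level in TPM of each gene pair at stages 5 to 10.5 in untreated embryos, with L and S copies in separate colours, a point for each library and lines through the means. Levels are near 0 up to stage 8 except for bix1.3.L at 2.76 to 4.90 TPM, and between stages 9 and 10.5 the mixer copies climb to 75.1 TPM and above while bix1.1.S and bix1.2.L go down.

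Between stage 9 and stage 10.5, the start of gastrulation, the family split by exon level. mixer.L had 122 and 123 TPM at stage 10.5, against 20.7 and 27.2 TPM at stage 9 (log2 difference 2.66, SE 0.15, adjusted p = 1.9e-21 from edgeR). mixer.S moved to the same degree, with 75.1 and 84.3 TPM, against 13.9 and 17.5 TPM (log2 difference 2.65, SE 0.18, adjusted p = 3.1e-19 from edgeR). These are the 2 members called higher in exons, beside 16.2% of all exon entries. The mix1 copies were also higher, at 102 and 96.0 TPM for mix1.L, against 47.7 and 58.8 TPM, and at 105 and 117 TPM for mix1.S, against 51.3 and 65.1 TPM, with log2 differences of 1.2 and 1.23 (SE 0.14 and 0.12) that passed the adjusted p without reaching 1.5.

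The Bix genes did not follow. bix1.1.S had 7.27 and 9.42 TPM at stage 10.5, against 18.5 and 22.6 TPM at stage 9 (log2 difference -1.0, SE 0.19, adjusted p = 8.3e-06 from edgeR), and bix1.2.L 17.3 and 15.5 TPM, against 31.7 and 49.0 TPM (log2 difference -0.99, SE 0.19, adjusted p = 6.0e-06). bix1.2.S was lower by a smaller step (log2 difference -0.49, adjusted p = 0.0076), which no longer passed the adjusted p with DESeq2's size factors (0.059), with DESeq2 (0.137) and without untreated replicate 2 (0.155). bix1.3.L was slightly higher (log2 difference 0.56, SE 0.14, adjusted p = 0.00056 from edgeR), but not past the threshold once stage 10.5 replicate 1 was left out (adjusted p = 0.173). For bix1.1.L (log2 difference 0.19, adjusted p = 0.28) and bix1.3.S (0.00, adjusted p = 1) no difference was detectable. Mix1 and mixer together made up 69.1% and 69.9% of the family's summed TPM at stage 10.5, against 39.0% and 38.4% at stage 9. The log2 differences rest on TMM scaling and run somewhat above the ratios of TPM here. In TPM, both stage 10.5 libraries of bix1.3.S lay below both of stage 9, beside 52.2% of all genes that lay lower in this way.

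Introns of every member were lower at stage 10.5. Intron levels of mix1.S were 0.332 and 0.324 RPKM at stage 10.5, against 11.3 and 14.7 RPKM at stage 9 (log2 difference -5.17, SE 0.39, adjusted p = 9.1e-18 from edgeR). For mixer.L, whose exons rose most, introns were at 1.24 and 0.648 RPKM, against 8.61 and 11.2 RPKM (log2 difference -3.29, SE 0.35, adjusted p = 2.8e-12). bix1.1.L kept the highest intron level of the family, 2.02 and 2.37 RPKM, against 10.1 and 11.8 RPKM, with the smallest difference of -2.21 (SE 0.23), and bix1.2.S had the largest, -6.34 (SE 0.75), on 1 intron count at stage 10.5. Introns of 10 of 10 members were called lower, beside 4.34% of all intron entries. The median over all intron entries was 1.28 higher at stage 10.5, and the median of the members -4.32. Summed over the family, introns had 5.52 and 6.35 RPKM at stage 10.5, against 77.7 and 98.4 RPKM at stage 9, while exons summed to 585 and 602 TPM, against 343 and 439 TPM. The stage 10.5 libraries carry added RNA of GFP, mCherry and luciferase, and the labels give them no collection, so stage and collection cannot be told apart.

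**Figure D2:**
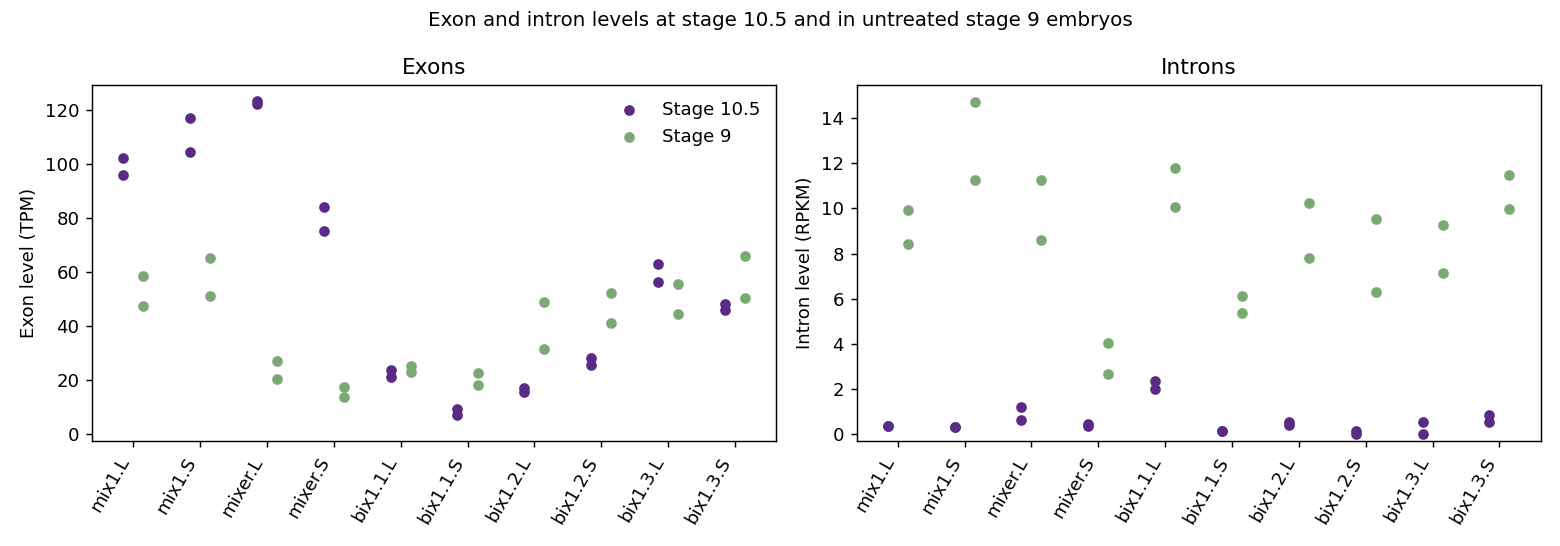
Exon level in TPM and intron level in RPKM of the 10 genes at stage 10.5 and in untreated stage 9 embryos of collection A, a point for each library. In the exon panel the mixer and mix1 points of stage 10.5 lie above those of stage 9, and in the intron panel every stage 10.5 point, 0 to 2.37 RPKM, lies below its stage 9 pair, 2.69 to 14.7 RPKM.

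No difference with DMSO alone passed the test. In collection A, 0 members were called by edgeR and 0 by DESeq2, 3 exon entries had an unadjusted p under 0.05, and 0.0109% of all genes were called higher and 0.0109% lower. The largest exon difference was that of mixer.L, with 34.3 and 29.3 TPM in DMSO, against 20.7 and 27.2 TPM in untreated embryos (log2 difference 0.41, SE 0.16, adjusted p = 0.86 from edgeR).

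With transcription blocked, the family was at or near 0. In collection A, triptolide lowered 10 of 10 genes in exons and in introns. Called lower were 5.72% of all exon entries and 68.6% of all intron entries, and 27.3% of all genes in either. mixer.L had no exon count with triptolide, against 34.3 and 29.3 TPM in DMSO, at least 205-fold lower, and bix1.3.S and bix1.2.L, likewise without an exon count, were at least 212-fold and 147-fold lower. Every member stood at or under 0.160 TPM in each triptolide library of that collection.

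Collection B gave the same 10 of 10, beside 6.3% of all exon entries, 73.1% of all intron entries and 29.6% of all genes. mix1.S and mix1.L had no exon count with triptolide, against 63.1 and 66.6 TPM and 74.5 and 85.4 TPM in DMSO, at least 369-fold and 279-fold lower. bix1.3.L stood apart again. It had 0.568 and 3.13 TPM with triptolide (8 and 47 counts), against 73.5 and 68.5 TPM in DMSO (log2 difference -5.02, SE 0.21, adjusted p = 1.6e-27 from edgeR), with no intron count in the triptolide libraries, against 7.01 and 7.51 RPKM. The other members held at most 0.110 TPM there. In collection A, bix1.3.L had 0.103 and 0.106 TPM with triptolide, 1 count in each library.

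With translation blocked from stage 8, a small part of the RNA of the family was measured. The study reports that cycloheximide kept embryos from going on to the next stage. Loss of translation and a halt in stage therefore cannot be told apart in a comparison of CHX with DMSO. With CHX in collection B, all 10 genes were called lower than in DMSO, in exons and in introns. The shares called lower were 3.95% of all exon entries, 51.3% of all intron entries and 20.6% of all genes. mix1.L had 3.26 and 4.81 TPM with CHX, against 74.5 and 85.4 TPM in DMSO (log2 difference -4.4, SE 0.21, adjusted p = 5.0e-25 from edgeR). bix1.2.L, the most abundant member in the DMSO embryos, had 3.93 and 4.51 TPM with CHX, against 106 and 96.8 TPM in DMSO (log2 difference -4.66, SE 0.19). The differences ran from -3.78 for bix1.3.L to -6.17 for mixer.S, which had 0.229 and 0.366 TPM with CHX, against 21.3 and 20.5 TPM in DMSO. The median of the members was -4.39, and that of all exon entries 0.07.

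What remained with CHX was called higher than with triptolide for 8 of 10 genes, beside 13.9% of all genes. In exon TPM both CHX libraries lay above both triptolide libraries for 10 of 10 members, beside 32% of all genes. mix1.S had 3.91 and 4.14 TPM with CHX, against no count with triptolide, at least 22.9-fold higher, and mix1.L was at least 14.1-fold higher, with adjusted p of 1.9e-10 and 1.8e-07 from edgeR. mixer.L, with 0.799 and 0.905 TPM, was at least 8.38-fold higher. The uncalled members were mixer.S, with 7 counts in the CHX libraries and none with triptolide (log2 difference 4.59, SE 2.36, adjusted p = 0.15), and bix1.3.L, with 5.22 and 5.62 TPM, against 0.568 and 3.13 TPM (log2 difference 1.24, SE 0.34, adjusted p = 0.004). For bix1.3.L the adjusted p became 0.131 without triptolide replicate 1, and without triptolide replicate 2 the log2 difference was 3.07 and the gene was called. Introns were called higher for 3 of 10 members, mix1.S, mix1.L and bix1.2.L, which lies near the 33.2% of all intron entries. Only the call of mix1.S stood without any 1 of the libraries.

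**Figure D3:**
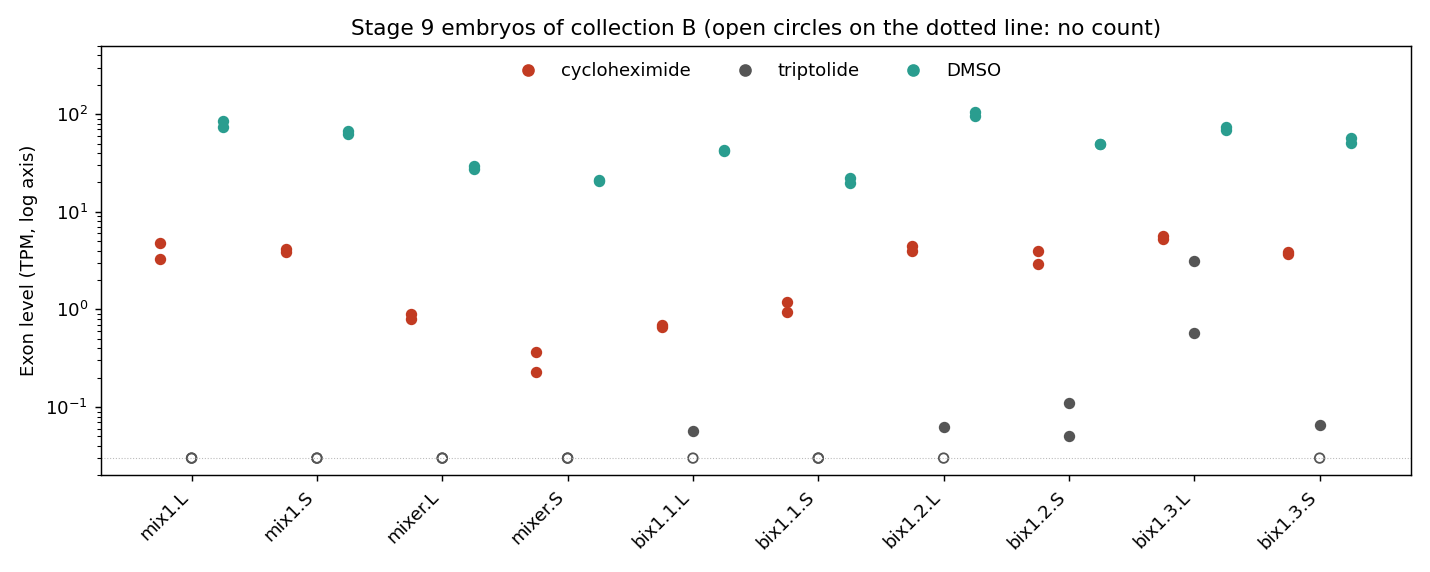
Exon level in TPM, on a log axis, of the 10 genes in embryos of collection B given cycloheximide, triptolide or DMSO. The embryos were collected when untreated embryos were at stage 9. Each library is a point, and open circles on a dotted line mark libraries with no count. Cycloheximide points lie between 0.229 and 5.62 TPM, below the DMSO points at 19.9 TPM and above, and above triptolide points, of which those of bix1.3.L at 0.568 and 3.13 TPM are the highest.

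Morpholinos against the maternal Pou5f3 and Sox3 factors left no member called lower in embryos that could still translate. Of all genes, 1.28% were called lower in collection G, and 1.57% with pou5f3.2 + pou5f3.3 MO and 2.74% with the triple MO in collection F. A count of 0 of 10 lies near these shares. In collection G, 0 members were called with pou5f3.3 + sox3 MO at the log2 threshold of 1.5, beside 3.77% of all genes called higher, and 8 exon entries had an unadjusted p under 0.05. At the adjusted p alone, 7 of 10 were higher in exons and none lower, beside 2.59% of all exon entries. mixer.L led, with 18.3, 12.4 and 20.0 TPM in pou5f3.3 + sox3 morphants, against 7.43, 6.96 and 4.62 TPM in GFP morphants (log2 difference 1.38, SE 0.18, adjusted p = 5.9e-08 from edgeR). Its introns moved with it, at 11.7, 8.42 and 11 RPKM, against 4.32, 3.77 and 2.60 RPKM (log2 difference 1.46, SE 0.19, adjusted p = 2.9e-08), and DESeq2 called this 1 gene, on these introns. Intron entries as a whole stood higher in this comparison, with a median of 0.58 over all of them and 0.58 over the members, while the exon medians were -0.02 over all entries and 0.57 over the members.

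The others followed at smaller steps. mixer.S had 13.3, 9.63 and 15.0 TPM in pou5f3.3 + sox3 morphants, against 7.26, 5.76 and 3.31 TPM (log2 difference 1.17, SE 0.25, adjusted p = 0.00038 from edgeR). bix1.3.L had 44.0, 40.0 and 40.2 TPM, against 22.6, 25.7 and 20.3 TPM (log2 difference 0.85, SE 0.14, adjusted p = 2.8e-06). bix1.2.L (0.73), bix1.2.S (0.63), mix1.S (0.51) and mix1.L (0.43) passed the adjusted p as well. For mix1.L the adjusted p was 0.040 from edgeR and 0.076 from DESeq2. mix1.L also no longer passed without GFP MO replicate 2 or 3 or morphant replicate 1 or 3, nor did bix1.2.S without GFP MO replicate 3. Neither bix1.1 copy passed in exons, with bix1.1.L at 34.1, 30.8 and 43.3 TPM, against 30.0, 37.4 and 31.2 TPM (log2 difference 0.13, SE 0.11, adjusted p = 0.55). Introns of bix1.1.L were at 14.4, 12.2 and 14.5 RPKM, against 8.71, 9.69 and 11 RPKM (log2 difference 0.44, SE 0.12, adjusted p = 0.0091 from edgeR), which is below the median of all intron entries and no longer passed without GFP MO replicate 1 or morphant replicate 3. Without GFP MO replicate 1, 2 genes were called, mixer.L and mixer.S, and without pou5f3.3 + sox3 MO replicate 2 mixer.L was called.

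In collection F, with another pair of morpholinos, the mixer copies again moved most in exons. With pou5f3.2 + pou5f3.3 MO, mixer.S had 33.5, 34.4 and 29.3 TPM, against 12.1, 14.7 and 11.5 TPM with GFP MO (log2 difference 1.33, SE 0.17, adjusted p = 1.8e-08 from edgeR), and mixer.L 37.1, 30.3 and 30.1 TPM, against 15.4, 18.6 and 16.4 TPM (log2 difference 0.94, SE 0.14, adjusted p = 5.5e-07). No member was called at the log2 threshold of 1.5 by edgeR or DESeq2, beside 2.31% of all genes called higher, 9 exon entries had an unadjusted p under 0.05, and 7 of 10 were higher at the adjusted p alone, beside 2.23% of exon entries. The 3 that did not pass were bix1.1.S (0.35, adjusted p = 0.063), bix1.3.S (0.32, adjusted p = 0.078) and bix1.1.L (-0.06, adjusted p = 0.86).

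With the triple MO, set against the same GFP MO libraries, mixer.S had 44.5, 27.2 and 30.1 TPM, against 12.1, 14.7 and 11.5 TPM (log2 difference 1.39, SE 0.17, adjusted p = 2.3e-09 from edgeR), and mixer.L 36.2, 28.5 and 22.3 TPM, against 15.4, 18.6 and 16.4 TPM (log2 difference 0.77, SE 0.14, adjusted p = 1.9e-05). Again 0 members were called by edgeR or DESeq2, beside 4.04% of all genes, with 9 exon entries at an unadjusted p under 0.05, and 6 were higher at the adjusted p alone, beside 4.18% of exon entries. Without GFP MO replicate 2, mixer.S was called at a log2 difference of 1.51. Of the 6, bix1.2.L, bix1.2.S and mix1.S no longer passed without GFP MO replicate 1, nor bix1.2.L, bix1.3.L and mix1.S without triple MO replicate 1. bix1.1.L had 48.8, 40.1 and 49.0 TPM, against 53.0, 54.0 and 55.4 TPM (log2 difference -0.26, SE 0.09, adjusted p = 0.054). Its groups did not overlap, beside 11.6% of all genes that lay lower in this way, but the test was not passed.

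Adding sox3 MO to pou5f3.2 + pou5f3.3 MO moved the family little. Of the 10 genes 0 were called in the direct comparison by edgeR or DESeq2, 1 exon entry had an unadjusted p under 0.05, and 0.261% of all genes were called higher and 0.685% lower. Exon differences ran from -0.20 (bix1.1.L, SE 0.09) to 0.07 (mixer.S, SE 0.15). Introns of bix1.2.L were at 21.5, 12.6 and 14.5 RPKM with the triple MO, against 24.4, 25.0 and 21.2 RPKM (log2 difference -0.51, SE 0.13, adjusted p = 0.010 from edgeR, and 0.098 with DESeq2), a difference that no longer passed without pou5f3.2 + pou5f3.3 MO replicate 2 or triple MO replicate 2 or 3.

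**Figure D4:**
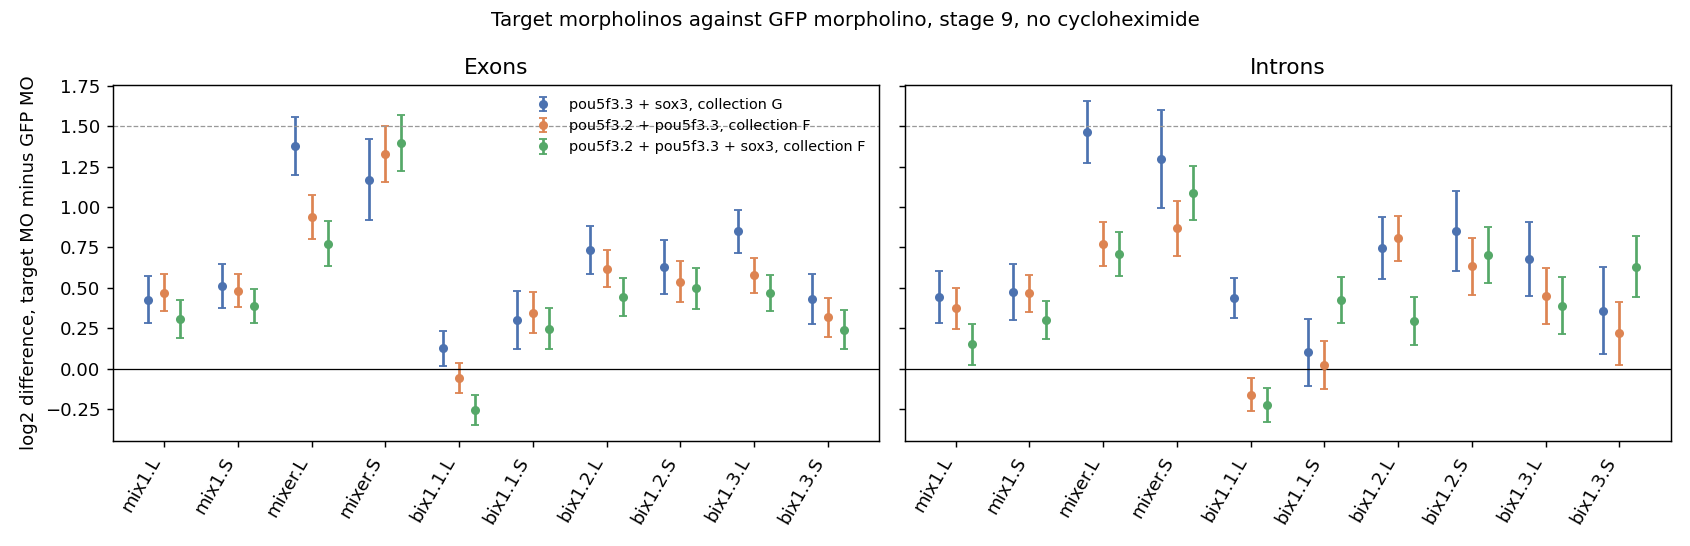
The log2 difference in exon and intron counts between morphants and GFP MO embryos of the same collection at stage 9 without cycloheximide, with bars of 1 SE and a dashed line at 1.5. In exons the mixer copies lie at 0.77 to 1.39 and bix1.1.L at -0.26 to 0.13, and no point reaches the line.

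Markers of the germ layers were measured beside these differences. Summed over 12 endoderm genes (copies of sox17a, sox17b, gata4, gata5, gata6 and a2m), exons had 87.9 to 117 TPM in pou5f3.3 + sox3 morphants of collection G, against 54.0 to 60.4 TPM in GFP morphants. In collection F the sum was 126 to 136 TPM with pou5f3.2 + pou5f3.3 MO and 128 to 171 TPM with the triple MO, against 73.6 to 83.7 TPM with GFP MO. Of the 12 genes, 2 were called higher in collection G, beside 3.77% of all genes. In collection F, 3 were called higher with pou5f3.2 + pou5f3.3 MO (2.31%) and 6 with the triple MO (4.04%). The 8 mesoderm genes summed to 26.3 to 37.0 TPM, against 22.4 to 27.8 TPM, in collection G, and the 19 ectoderm genes to 866 to 966 TPM, against 930 to 1076 TPM. Called lower were 4 of the 19 and none of the 8, beside 1.28% of all genes. In collection F the mesoderm sum was 82.2 to 91.8 TPM with pou5f3.2 + pou5f3.3 MO and 55.8 to 85.6 TPM with the triple MO, against 69.3 to 76.9 TPM with GFP MO. There 0 and 2 of the 8 genes were called lower, beside 1.57% and 2.74% of all genes. The ectoderm sum there was 1000.3 to 1112 TPM with pou5f3.2 + pou5f3.3 MO and 1047 to 1174 TPM with the triple MO, against 1132 to 1197 TPM with GFP MO. With triptolide in collection A the ectoderm sum was still 846 to 927 TPM, so it says little about new transcription. The endoderm and mesoderm sums were 2.47 to 3.42 TPM and 1.32 to 1.62 TPM there. Of the 19 ectoderm genes, 7 were called lower with pou5f3.2 + pou5f3.3 MO and 9 with the triple MO, beside the same shares of all genes, with medians of -0.68 and -0.81. Fewer cells of a layer and less RNA per cell cannot be told apart in whole embryos, and the part of these shifts in the Mix and Bix differences was not tested.

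With CHX and morpholino together the values were small. Against embryos without CHX, loss of translation and a halt in stage again cannot be told apart. In collection F, embryos with CHX and the triple MO had a family sum of 1.11, 3.52 and 2.96 TPM, against 552, 455 and 407 TPM with the triple MO alone, and 10 of 10 genes were called lower, beside 30.8% of all genes. mix1.S had 0.089, 0.762 and 0.930 TPM, against 70.3, 62.2 and 52.6 TPM (log2 difference -6.63, SE 0.23, adjusted p = 2.8e-31 from edgeR), and bix1.1.S had 1 count over the 3 CHX libraries.

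In collection C no member was called. With CHX, 0 members were called for pou5f3.3 MO (beside 0.67% of all genes called lower), 0 for sox3 MO (0.0217%) and 0 for both (2.16%). DESeq2 also called 0 in each, and 2, 0 and 2 exon entries had an unadjusted p under 0.05. Both libraries lay below both GFP MO libraries for 6 members with pou5f3.3 MO (17.1% of all genes lay lower in this way), for 1 with sox3 MO (16%) and for 5 with both (19.4%), and both lay above for 0, 2 and 1 members (13.3%, 17.1% and 15.8% of all genes). The median exon differences of the members were -1.22, 0.12 and -0.30. Family sums were 10.4 and 5.28 TPM with pou5f3.3 MO, 12.5 and 12.9 TPM with sox3 MO and 8.73 and 9.32 TPM with both, against 8.23 and 14.8 TPM with GFP MO. The largest difference with both was that of mix1.L, at 0.180 and 0.174 TPM, against 1.05 and 1.89 TPM (log2 difference -2.92, SE 1.1, adjusted p = 0.23 from edgeR), and bix1.1.L followed at 0.112 and 0.324 TPM, against 0.542 and 1.56 TPM (log2 difference -2.21, SE 0.79, adjusted p = 0.18).

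bix1.3.L was again the most abundant member in every library of collection C. It had 4.4 and 3.37 TPM with both morpholinos, against 2.38 and 4.51 TPM with GFP MO (log2 difference 0.17, SE 0.38, adjusted p = 0.995), with 0 intron counts against 0 and 1. In collection D it stood lower, at 0.718 and 0.748 TPM with GFP MO.

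At the higher dose in collection D, 3 of 10 genes were called lower, beside 7.6% of all genes. Total morpholino was 130 ng in the high-dose embryos and 80 ng with GFP MO, so target and total dose cannot be told apart. bix1.1.L had no exon count in the high-dose embryos, against 0.709 and 0.889 TPM (19 counts) with GFP MO, at least 3.11-fold lower (adjusted p = 0.0033 from edgeR). mix1.S had 0.461 and 0.229 TPM, against 1.83 and 1.99 TPM (log2 difference -2.32, SE 0.63, adjusted p = 0.0099), and bix1.3.S 0.107 and 0.089 TPM, against 1.42 and 1.01 TPM (log2 difference -3.31, SE 1.04, adjusted p = 0.035). All 10 exon differences were negative and 3 of 10 intron differences were positive, 9 members had groups that did not overlap in TPM, against 17% of all genes that lay lower in this way, and the family sum was 1.89 and 0.617 TPM, against 8.14 and 8.19 TPM. The calls rested on few counts and single libraries. Without the high-dose replicate 2, 0 genes were called, without GFP MO replicate 2 only bix1.1.L, and without either replicate 1 the call of bix1.3.S was lost. The endoderm sum was 12 to 12.9 TPM in the high-dose embryos, against 36.9 to 41.8 TPM, and the mesoderm sum 6.57 to 7.85 TPM, against 18.6 to 24.8 TPM. Called lower were 12 of the 19 ectoderm genes, 10 of the 12 endoderm genes and 3 of the 8 mesoderm genes, beside 7.6% of all genes. The median exon difference was -2.89 for the ectoderm genes, -1.82 for the endoderm genes and -2.52 for the mesoderm genes, beside -2.47 for the members. The part of these shifts in the result was not tested.

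Collection F holds no CHX embryos with GFP MO, so the triple MO with CHX was set against the GFP MO embryos of collections C and D. There 5 of 10 genes were called lower, beside 8.84% of all genes. mix1.L had 0, 0.178 and 0.152 TPM, against 0.571 to 1.89 TPM in the 4 GFP MO libraries (log2 difference -2.94, SE 1.01, adjusted p = 0.018 from edgeR), and bix1.3.L 0.209, 0.639 and 0.109 TPM, against 0.718 to 4.51 TPM (log2 difference -2.25, SE 0.66, adjusted p = 0.0051). The others called were bix1.1.L, bix1.1.S and bix1.2.L, and the count fell to 2 without GFP MO replicate 2 of collection C and to 2 without triple MO replicate 1. Morpholino, total dose (120 ng against 80 ng) and collection cannot be told apart here.

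Whether the effect of pou5f3.3 + sox3 MO itself differed with CHX was tested as the difference in collection C minus the difference in collection G. No member was called by edgeR, beside 4.26% of all genes called lower, with 3 exon entries at an unadjusted p under 0.05. mix1.L came nearest, with -2.92 in collection C and 0.43 in collection G (difference -3.34, SE 1.1, adjusted p = 0.071), then bix1.1.L, with -2.21 and 0.13 (difference -2.33, SE 0.80, adjusted p = 0.094). DESeq2 called 2, mix1.L and bix1.2.S, and without CHX GFP MO replicate 1 edgeR called bix1.1.L. Total morpholino was 80 ng in collection C and 120 ng in collection G, and collection and CHX cannot be told apart.

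**Figure D5:**
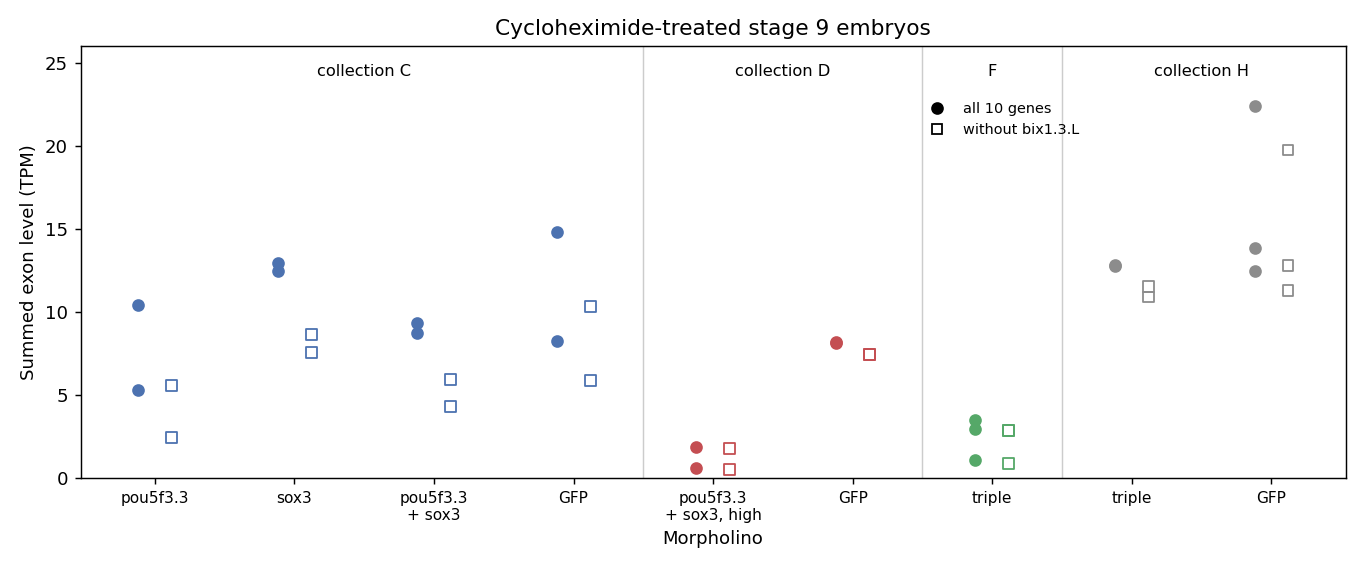
Exon level summed over the 10 genes, in TPM, in cycloheximide-treated embryos by morpholino and collection. The embryos were collected when untreated embryos were at stage 9. A filled circle stands for each library and an open square for the same sum without bix1.3.L. High-dose embryos of collection D (0.617 and 1.89 TPM) lie below their GFP MO embryos (8.14 and 8.19 TPM), and collection F has no GFP MO embryos. The filled circles of target MO and GFP MO overlap in collections C and H. Without bix1.3.L, the pou5f3.3 MO squares of collection C lie below the GFP MO squares.

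The L and S copies were compared in control stage 9 embryos (untreated, DMSO or GFP MO) of 6 collections, with 1 mean log2 ratio of TPM per collection. mixer.L was above mixer.S in 6 of 6 collections (mean log2 ratio 0.56 ± 0.25, SD over 6 collections), as was bix1.1.L above bix1.1.S (1.09 ± 0.70), and for both the exact two-sided sign-flip permutation test gave p = 0.03125, the smallest that 6 collections allow, and 0.078 after adjustment over the 5 pairs. So none of the 5 passed. With 6 collections no pair could have passed this adjustment by itself, so the outcome does not show that the copies were equal. The bix1.1 ratio was far from constant, at 1.27 in collection A (25.0 against 19.8 TPM) and 4.41 in collection G (32.8 against 7.35 TPM). Controls of A were uninjected and those of G carried GFP MO, so injection and collection cannot be told apart there. The bix1.2 ratio turned, with bix1.2.L at 102 TPM and bix1.2.S at 49.0 TPM in collection B, and 11.9 and 28.7 TPM in collection E. Mean log2 ratios of bix1.3 and mix1 were 0.20 ± 0.22 and 0.17 ± 0.26 (SD over 6 collections, L higher in 4 of 6 for each). In counts scaled to library size but not divided by length, mix1.S was above mix1.L in every collection (mean log2 ratio -0.53), since the annotated exons of mix1.S span 1829 bases and those of mix1.L 1119 bases.

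Averaged over the same collections, the order of levels ran from mix1.L (48.2 ± 21.4 TPM, SD, 6 collections) through bix1.3.L (43.5 ± 19.9), mix1.S (43.4 ± 20.0), bix1.2.L (39.1 ± 33.1), bix1.3.S (38.9 ± 18.8), bix1.1.L (32.5 ± 14.1), bix1.2.S (30.5 ± 16.0), mixer.L (17.1 ± 9.81) and bix1.1.S (14.9 ± 5.45) to mixer.S (11.8 ± 6.88). The SD over collections was wider than the gap between neighbours in this order, except for mixer.L against the gap to bix1.2.S. Above its next gene in 6 of 6 collections were mix1.L over bix1.3.L, bix1.2.S over mixer.L and bix1.1.S over mixer.S. Neighbours elsewhere in the order changed places, as in 3 of 6 collections for bix1.3.L and mix1.S. Control sums also differed between collections, and all were taken 8 hours after fertilization. They were 528 to 539 TPM in collection B, 343 to 491 TPM in A and 339 to 370 TPM in F. In E they were 270 and 312 TPM, in G 148 to 185 TPM and in H 116 to 168 TPM. Controls of A and B were uninjected, and those of F, G and H carried GFP MO. Only E held both kinds, so injection and collection cannot be told apart in these sums.

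Across the means of 26 conditions, each member followed the mean of the others, with Pearson's r of log2(TPM + 1) between 0.954 (bix1.3.L) and 0.994 (bix1.2.S). Of 14706 other genes with a symbol and at least 5 TPM in a condition, the closest to the family's mean were lefty.L (r = 0.993), an inhibitor of nodal signals, gdf3.S (0.992), a TGF-beta family ligand, ventx3.2.L (0.991), a ventx-type homeobox gene, XB5904899.L (0.987), of provisional name, and lefty.S (0.986). Those conditions share collections and libraries of unlike depth, and the values are a description. lefty.L stood at 0 TPM at stage 8 and averaged 20.8 TPM at untreated stage 9 and 23.1 TPM at stage 10.5, while gdf3.S averaged 0.522, 51.4 and 119 TPM.

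A list of 62 other mesendoderm genes (nodal ligands and their effectors, T-box, Sox17, Gata and Foxa genes and organizer genes) gives the setting. At stage 9 against stage 8, 51 of 62 were called higher and 1 lower, beside 27% and 5.5% of all genes. The median was 5.11, beside 7.98 for the members and -0.04 for all exon entries. At stage 10.5 against stage 9, 44 were called higher and 15 lower in exons or introns, beside 28% and 11.9% of all genes. A gene whose exons and introns moved apart counts in both, and by this count 2 members were higher and 10 lower. The exon median of the list was 2.76, beside 0.37 for the members. foxa4.L, a forkhead gene of the organizer and notochord, had the largest difference of the list with triptolide in collection A (log2 difference -11.88, SE 0.61). There 53 of 62 were lower (27.3% of all genes), and 52 were lower in collection B (29.6%).

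With CHX, 34 of the 62 genes were called lower than in DMSO (20.6% of all genes) and 5 higher (2.17%), with a median of -1.23, beside -4.39 for the members. Against triptolide, 44 were higher (13.9% of all genes). eomes.L, a T-box gene of the mesendoderm, led that last comparison (log2 difference 10.38, SE 0.67). Without CHX, 3 of the 62 were called higher with pou5f3.3 + sox3 MO (3.77% of all genes), led by gata6.S (3.56, SE 0.62), an endodermal zinc finger gene. With pou5f3.2 + pou5f3.3 MO 5 were higher (2.31% of all genes). With the triple MO 12 were higher (4.04%) and 2 lower (2.74%). With CHX, 5 were lower with pou5f3.3 + sox3 MO in collection C (2.16% of all genes) and 25 at the higher dose in collection D (7.6%). The medians were -0.34 and -1.72, beside -0.30 and -2.47 for the members.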

How the data were processed

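The deposited notes name HISAT2 2.2.1 and featureCounts 2.0.1. The study's methods name another HISAT2 version, genome v9.2, reverse-stranded paired counting with default parameters, and introns that leave out regions covered at stage 5, repeats and shared stretches. The authors deposited exon and intron counts, exon TPM made by the authors from exon counts and lengths, and intron RPKM made by the authors from intron counts, intron lengths and the exon counts of each library. TPM of 3 libraries (stage 8 replicate 2 and both of stage 10.5) were scaled over more genes than the table lists. No per-sample column was left unused.

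Here, exon entries reaching 0.5 CPM in any library, and intron entries reaching 0.25 RPKM with over 10 counts, entered 1 edgeR 4.0.16 fit (TMM, quasi-likelihood F-test) of 53 libraries in 26 conditions, without collection H, in place of the study's DESeq2. DESeq2 1.42.0 was an alternative. SE was taken as the absolute log2 difference divided by the root of F. A fold against a group without counts takes 3 counts per library, about the upper 95% limit for a count of 0 and not a hard bound. It covers the counting error of that group only. L and S ratios used a pseudocount of 0.1 TPM. The fit was tested on simulated data, for the comparison of triple MO with GFP MO in collection F only. No CHX comparison was tested in this way.

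Members and lists were chosen with earlier results of these data known. Genes named are the members, the 5 closest by correlation, and the largest change of a list. Alternatives were the test, the scaling, the filter, the libraries fitted, the block, the threshold and leaving out each replicate. No sequence is shown.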

Additional observations from a re-analysis of the deposited data

Results flagged for a closer look

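Values of morpholino libraries that entered no test of a morpholino effect are given here. In collection E, with 1 library per condition and so no replicate check, the family summed to 533.8 TPM with pou5f3.3 + sox3 MO, against 312.0 TPM with GFP MO and 270.3 TPM in untreated embryos. Among the members, mixer.S was at 41.4 TPM against 13.2 and 9.74 TPM, mixer.L at 46.1 TPM against 16.3 and 18.1 TPM, and bix1.1.L at 31.5 TPM against 28.6 and 24.1 TPM. The endoderm sum was 238 TPM, against 128 and 145 TPM.

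In the CHX libraries of collection H, discarded by the study, mixer.L averaged 1.17 TPM with the triple MO (0.980 and 1.36 TPM), against 0.187 to 0.674 TPM with GFP MO, and mixer.S 0.784 TPM (0.602 and 0.965 TPM), against 0.268 to 0.537 TPM. Below every GFP MO library lay bix1.1.L at 0.281 to 0.491 TPM, against 0.984 to 1.72 TPM, bix1.2.S at 0.754 to 1.32 TPM, against 1.66 to 3.08 TPM, and mix1.L at 1.78 to 2.04 TPM, against 2.29 to 4.32 TPM. The family sum was 12.7 and 12.8 TPM with the triple MO, against 12.4 to 22.4 TPM. The share of all genes that lay apart in this way was not computed for collection H, and these differences were not tested.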

How the results depend on the processing

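Of 178 member differences past an adjusted p of 0.05, 2173 of 2261 values under the alternatives kept direction and threshold, 88 lost the threshold and 0 reversed. Of 2586 values of the other differences, 111 changed sign, 0 of them past the threshold. Other scalings moved the median of all exon entries by -0.24 (triptolide against DMSO, collection B) to 0.12 (CHX against triptolide).

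At stage 8 against stage 5, 1 gene was called with collection H added, 1 with the replicate block, 1 with only the libraries compared, 4 with DESeq2 and 1 without each replicate. A log2 threshold of 1 gave 2 genes with pou5f3.3 + sox3 MO in collection G, 1 with pou5f3.2 + pou5f3.3 MO and 1 with the triple MO, and DESeq2 gave 1 in collection G. The test of the effect with CHX minus without gave 1 with the replicate block (mix1.L), 1 with only the libraries compared and 2 with DESeq2. Leaving out single replicates gave 0 to 2 genes in collection G, 0 to 1 with the triple MO, 0 to 2 in collection D, 2 to 5 for CHX triple MO against GFP MO of C and D, and 0 to 1 for the effect with CHX minus without. For L and S copies, counts not divided by length turned bix1.2 (-0.12) and mix1 (-0.53), and leaving out GFP MO libraries turned bix1.2 (-0.28).

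Replicate numbers were not taken to pair samples. Same-numbered samples correlated at 0.21 to 0.33 in collection A and 0.38 in D, at -0.56 to -0.01 in B, near 0 in C, and with mixed signs in F and G, where not every sample correlated best with its own number. The block left 2 genes in collection D and 4 for CHX triple MO against C and D. In CHX morphants of collections C, D and F a library held 9 to 141 exon counts over all 10 genes, which limits what could be detected.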
